A study of Mus musculus with 20 samples.

Results

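The lymphomas that arise in mice whose T cells lack the helix-loop-helix inhibitors Id2 and Id3 were set against *Id2*-/-*Id3*-/- CD4SP thymocytes of mice without tumors, called dKO CD4SP cells here. The members are the genes whose larger average of these 2 groups was 10 normalized counts or more, and they numbered 14549 of 39179 genes. For each one the log2 ratio of the lymphoma average to the dKO CD4SP average was taken, with 1 added to both averages. RNA from sorted C57BL/6 mouse cells had been sequenced in 20 libraries. The 6 lymphoma libraries carried the genotype *Id2*-/-*Id3*-/- and came from lymph node in 4 cases, from spleen in 1 and from thymus in 1. They were sorted as CD3+TCRβ+CD4+ cells in 4 cases and as CD3+TCRβ+CD8+ cells in 2. The 3 dKO CD4SP libraries held thymic CD4+TCRβ+CD8- cells of mice aged 8 wk with *Id2* fl/fl and *Id3* fl/fl alleles and *IL7R*-Cre, in which Cre is driven from the *Il7r* locus in lymphoid cells. Context came from 3 libraries of thymic CD4SP cells labelled *Id3*-/-, 3 of TFH cells, sorted as CD4+TCRβ+CD44highCXCR5+ from the spleen of wild-type animals after immunization with sheep erythrocytes, and 5 of control CD4SP cells. The labels call the controls wild type, and the study elsewhere speaks of *Id3*+/- or littermate controls. Lymphomas were described in older mice carrying *IL7R*-Cre, *CD4*-Cre or *dLck*-Cre, and the sources used here do not say which line, age or mouse each sequenced tumor came from. Tissue, sorted coreceptor, age and possibly Cre line thus differ together with the step from thymocyte to tumor, and their parts cannot be told apart.

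E proteins such as E2A, HEB and E2-2 are transcription factors that hold T cell precursors at developmental checkpoints. Id proteins pair with them and keep them off DNA, so that E protein activity rises when *Id2* and *Id3* are lost. The CD4SP stage is the last in the thymus before naive helper T cells leave, and TFH cells are the helper cells of B cell follicles. The comparison asked how the RNA of the malignant cells differs from that of the expanded thymocytes that already lack both inhibitors.

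Each value below is the authors' average of normalized counts over the libraries of a group, with no value per library. No spread, standard error or test could be had for any difference, and the word called means only that averages differed by more than 2-fold. An average over 6 tumors can rest on 1 of them. Because cells were measured in bulk, fewer cells of a type and less RNA per cell cannot be told apart.

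Before the comparison itself, the identity of the cells was read from marker genes. T cell identity was seen in both groups, since 10 of 11 T cell markers lay within 2-fold. *Cd3e*, a CD3 chain, averaged 5245 in lymphomas and 9475 in dKO CD4SP cells (log2 ratio -0.85). The exception was *Trbc1*, 1 of the 2 TCRβ constant genes, at 1502 in lymphomas and 5422 in dKO CD4SP cells (log2 ratio -1.85). *Trbc2*, its partner, stood at 19841 in lymphomas and 15389 in dKO CD4SP cells (log2 ratio 0.37). Some markers of other cells were higher in the lymphomas, and the lists differed. All 7 granulocyte markers that passed the filter were past 2-fold higher. They passed only through the lymphoma average, which fixed their direction. The 9 listed markers, taken without the filter, summed to 776 normalized counts in lymphomas and 7.61 in dKO CD4SP cells. The 4 kept erythroid markers were past 2-fold higher and also passed only through the lymphoma average. The 10 listed erythroid markers summed to 407 in lymphomas and 25.4 in dKO CD4SP cells. Of 11 kept macrophage and monocyte markers 6 were past 2-fold higher and none lower, among them *Lyz2*, the lysozyme of myeloid cells, at 123 in lymphomas and 7.70 in dKO CD4SP cells (log2 ratio 3.83). All of these 6 passed only through the lymphoma average, except *Cd68*, at 77.4 in lymphomas and 24.6 in dKO CD4SP cells. The monocyte surface antigen *Ly6c2* stood at 6408 in lymphomas and 6375 in dKO CD4SP cells. Of the 6 kept plasma and germinal center B cell markers 4 were past 2-fold higher, including *Jchain*, the joining chain of IgM and IgA, at 768 in lymphomas and 51.5 in dKO CD4SP cells (log2 ratio 3.87). *Sdc1*, the plasma cell antigen CD138, had 553 in lymphomas and 30.9 in dKO CD4SP cells (log2 ratio 4.12). *Mef2b*, a germinal center factor, was at 694 in lymphomas and 133 in dKO CD4SP cells (log2 ratio 2.38). The defining B cell markers *Ms4a1* and *Pax5* stood at 5.82 and 7.59 in lymphomas and 9.13 and 4.36 in dKO CD4SP cells, below the filter. Of 8 kept B cell markers 3 were past 2-fold higher and 2 lower. *Cd79b*, a B cell receptor chain, stood at 455 in lymphomas and 27.7 in dKO CD4SP cells (log2 ratio 3.99). *Cd79a*, its partner, stood at 42.6 in lymphomas and 38.8 in dKO CD4SP cells. *Blk*, listed both for B cells and for NK and γδ T cells, had 802 in lymphomas and 60.8 in dKO CD4SP cells (log2 ratio 3.70). *Ebf1*, a B lineage factor, was lower, with a log2 ratio of -2.12. *Fcrla*, a B cell gene of the Fc receptor-like family, was lower at 6.28 in lymphomas and 103 in dKO CD4SP cells (log2 ratio -3.83). The markers of NK and γδ T cells had 2 of 8 kept genes higher and 3 lower, and among 3 kept thymic epithelial markers 1 was higher and 1 lower. Of 8 kept dendritic cell and MHC class II genes 5 were past 2-fold higher and 1 lower. The only kept basophil and mast cell marker, *Cpa3*, had 277 in lymphomas and 8.10 in dKO CD4SP cells (log2 ratio 4.93). *Cpa3*, too, passed the filter only through the lymphoma average. Of 2 kept endothelial and stromal markers 1 was higher, *Col1a1*, at 1663 in lymphomas and 377 in dKO CD4SP cells (log2 ratio 2.14). The immunoglobulin heavy chain gene *Ighg1* had 1904 in lymphomas and 2.60 in dKO CD4SP cells. The sex of the mice differed between the averages as well, because *Xist*, the RNA of the inactive X chromosome, averaged 10477 in lymphomas and 19.7 in dKO CD4SP cells, and the Y-linked *Ddx3y* 8.04 in lymphomas and 1478 in dKO CD4SP cells. The part of admixed cells and of sex in the values below was not tested.

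Over all 14549 genes, 1623 (11.2%) were past 2-fold higher in lymphomas and 1932 (13.3%) past 2-fold lower, which makes 24.4% in either direction. With a larger average of 50 or more the order turned, with 1031 higher and 855 lower. These shares are the background for each gene group below, whose counts and medians cover the members that passed the filter. The median log2 ratio was 0.05, and the middle part of the genes, from the lower to the upper quartile, ran from -0.44 to 0.46. Beyond 4-fold, 662 genes (4.55%) were higher and 905 (6.22%) lower. Ratios were above 0 in 53.3% of genes and below 0 in 46.7%. The members just inside the filter were *Gm18294*, with 2.25 in lymphomas and 10.0 in dKO CD4SP cells, and *Fut9*, with 1.02 in lymphomas and 10.0 in dKO CD4SP cells. Just outside were *Prickle2*, with 6.01 in lymphomas and 9.9955 in dKO CD4SP cells, and *Gm16853*, with 9.9999 in lymphomas and 8.40 in dKO CD4SP cells.

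**Figure D1:**
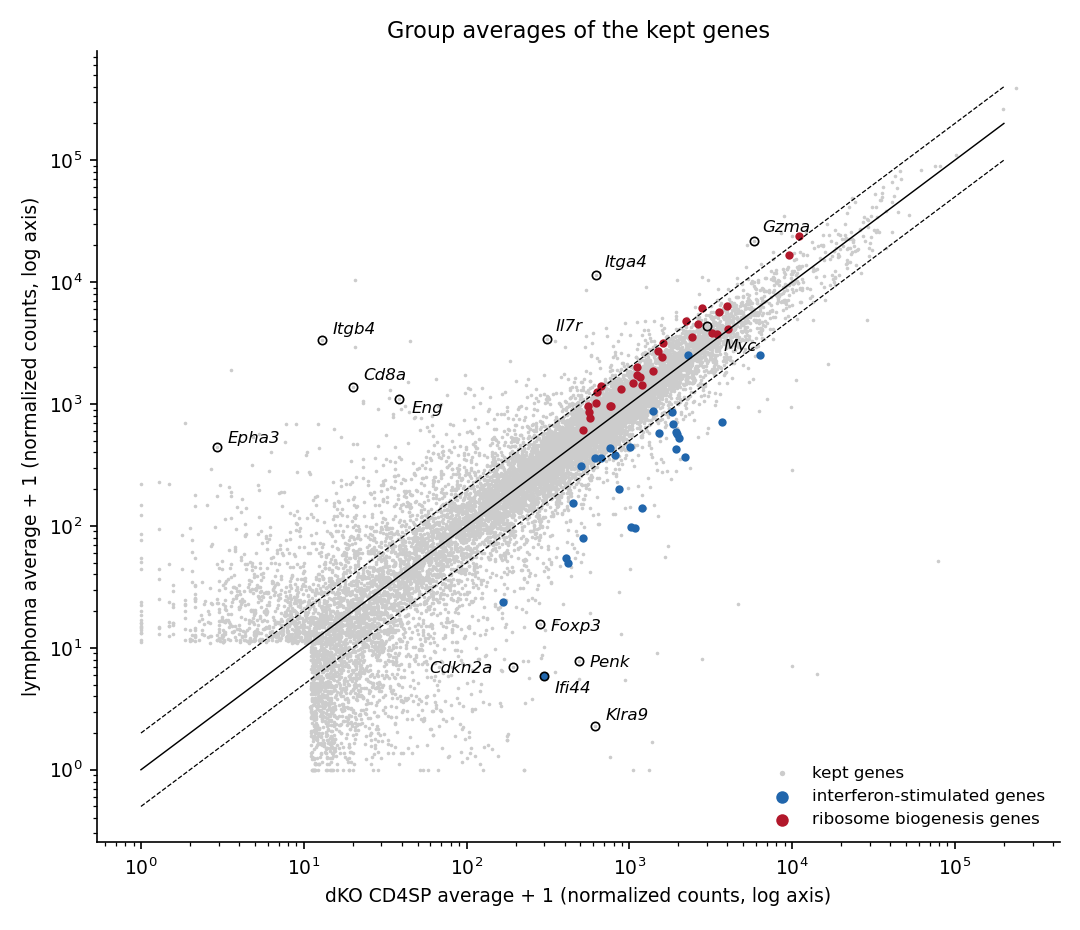
Averages of normalized counts plus 1 of the 14549 kept genes, with dKO CD4SP cells on the horizontal and lymphomas on the vertical log axis; each point is a gene, the solid line marks equal averages and the dashed lines 2-fold differences. The 28 interferon-stimulated genes (blue) lie mostly below the lines and the 30 ribosome biogenesis genes (red) on or above equality, while *Itgb4* and *Klra9* stand far off on either side.

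The targeted genes and their partners came first. *Id2*, on chromosome 12 from 25093799 to 25097140 of mm10, averaged 30.5 in lymphomas and 6.82 in dKO CD4SP cells (log2 ratio 2.01), against 1764 in the libraries labelled *Id3*-/-, 1628 in TFH cells and 2293 in control CD4SP cells, so both knockout groups held a small part of the control level. *Id3* averaged 857 in lymphomas and 879.7 in dKO CD4SP cells (log2 ratio -0.04), against 2649.7 in the libraries labelled *Id3*-/-, 1777 in TFH cells and 1991 in control CD4SP cells. A whole-gene value cannot tell whether reads come from the part of an allele that a deletion leaves, and the libraries labelled *Id3*-/- did not show less *Id3* than control. Of the 9 E and Id protein genes 7 passed the filter, with 1 past 2-fold higher, *Id2*, and 1 lower, *Id1*, at 4.92 in lymphomas and 13.2 in dKO CD4SP cells (log2 ratio -1.26). *Tcf3*, which encodes E2A, stood at 1869 in lymphomas and 1856 in dKO CD4SP cells (log2 ratio 0.01). *Tcf12*, which encodes HEB, averaged 1992 in lymphomas and 1792 in dKO CD4SP cells (log2 ratio 0.15). *Tcf4*, which encodes E2-2, stood at 27.7 in lymphomas and 42.7 in dKO CD4SP cells (log2 ratio -0.61). The related factor gene *Lyl1* had 61.8 in lymphomas and 33.8 in dKO CD4SP cells (log2 ratio 0.85), and *Tal1* and *Id4* did not pass the filter. The E protein genes themselves thus differed by less than 2-fold between tumors and thymocytes.

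The largest difference among the cell cycle brakes was that of *Cdkn2a*. This locus, on chromosome 4 from 89274471 to 89294653, encodes the CDK4/6 inhibitor INK4A and, from another reading frame, ARF, which shields p53 from MDM2. Its average was 6.01 in lymphomas and 192 in dKO CD4SP cells (log2 ratio -4.78), with 17.3 in the libraries labelled *Id3*-/-, 7.10 in TFH cells and 2.57 in control CD4SP cells. The dKO CD4SP average alone stood high, and that of the lymphomas lay at the level of TFH cells. Whole-gene averages do not separate the 2 transcripts. The study did so with reads along the locus, and reported that ARF RNA, and not INK4A RNA, was raised in dKO CD4SP cells. It reported almost no ARF RNA in the lymphomas. The neighboring genes, looked up after their values were seen, did not share this difference. *Cdkn2b*, which encodes the related inhibitor INK4B, had 9.72 in lymphomas and 12.1 in dKO CD4SP cells. The metabolic enzyme gene *Mtap* had 971 in lymphomas and 701 in dKO CD4SP cells. Of the 7 inhibitor genes 1 was past 2-fold higher and 2 lower, beside the background of 11.2% and 13.3%. *Cdkn2c*, another INK4 inhibitor that lies on the same chromosome, was at 294 in lymphomas and 814 in dKO CD4SP cells (log2 ratio -1.47). *Cdkn1a*, the p53 target p21, was at 78.0 in lymphomas and 33.1 in dKO CD4SP cells (log2 ratio 1.21). *Cdkn1b*, which encodes p27, had 1127 in lymphomas and 1798 in dKO CD4SP cells. *Cdkn1c*, which encodes p57, averaged 109 in lymphomas and 76.4 in dKO CD4SP cells. *Cdkn2d*, which encodes the INK4 inhibitor p19INK4D, stood at 884 in lymphomas and 1065 in dKO CD4SP cells. Across p53 and its targets 2 of 25 kept genes were past 2-fold higher and 2 lower, with a median log2 ratio of -0.12. *Plk2*, a stress-induced kinase, had 2452 in lymphomas and 577 in dKO CD4SP cells (log2 ratio 2.08). *Phlda3*, an inhibitor of AKT, had 81.0 in lymphomas and 323 in dKO CD4SP cells (log2 ratio -1.98). *Ei24*, an endoplasmic reticulum protein gene, stood at 533 in lymphomas and 1196 in dKO CD4SP cells (log2 ratio -1.16). The dKO CD4SP value of *Plk2* already exceeded that of control CD4SP cells, 30.7.

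*Myc*, the transcription factor gene that drives growth programs, lies on chromosome 15 from 61985391 to 61990374 and averaged 4326 in lymphomas and 3015 in dKO CD4SP cells (log2 ratio 0.52), against 2627 in the libraries labelled *Id3*-/-, 626 in TFH cells and 1576 in control CD4SP cells. *Myc* itself was thus within 2-fold. Groups of genes that it is known to induce leaned to higher values, and the part of *Myc* in this was not tested. Ribosome biogenesis genes serve the nucleolus, where ribosomal RNA is made and assembled. All 30 had a log2 ratio above 0, where 53.3% of all genes did, 4 were past 2-fold higher and none lower, and their median was 0.62 beside 0.05 for all genes. *Ncl*, the nucleolar protein nucleolin, averaged 24031 in lymphomas and 10962 in dKO CD4SP cells (log2 ratio 1.13). *Mybbp1a*, a nucleolar partner of MYB, had 6163 in lymphomas and 2809.8 in dKO CD4SP cells (log2 ratio 1.13). *Nop58*, a core protein of small nucleolar RNPs, was at 4829 in lymphomas and 2228 in dKO CD4SP cells (log2 ratio 1.12). *Polr1a*, the large subunit of RNA polymerase I, averaged 1411 in lymphomas and 671 in dKO CD4SP cells (log2 ratio 1.07). The lowest of the 30 was *Ubtf*, a polymerase I factor, at 4096 in lymphomas and 4053 in dKO CD4SP cells (log2 ratio 0.02). In *Ncl* and *Nop58* the lymphomas held the highest of the 5 averages, since *Ncl* stood at 10219.5 in the libraries labelled *Id3*-/-, 7747 in TFH cells and 7767 in control CD4SP cells. MYC metabolic targets had a median of 0.60 over 18 genes, with 14 above 0 and only *Gart*, a purine synthesis enzyme, past 2-fold, at 4022 in lymphomas and 1587 in dKO CD4SP cells (log2 ratio 1.34). None of the 11 kept genes of the MYC network of dimerization partners and antagonists was past 2-fold, and their median was -0.31. It was -0.07 over the 10 genes with a larger average of 50 or more. The lowest ratio among the 11 was that of the antagonist *Mxd1*, at 418 in lymphomas and 706 in dKO CD4SP cells. *Mxi1*, another antagonist, had 231 in lymphomas and 375 in dKO CD4SP cells.

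Glycolysis genes leaned the same way. Of 22 genes 6 were past 2-fold higher and none lower, with a median of 0.77 and 19 above 0. *Pkm*, the last kinase of the pathway, averaged 23818 in lymphomas and 10034 in dKO CD4SP cells (log2 ratio 1.25). *Pgk1*, phosphoglycerate kinase, stood at 8769 in lymphomas and 3495 in dKO CD4SP cells (log2 ratio 1.33). *Hk2*, the inducible hexokinase, was at 264 in lymphomas and 88.5 in dKO CD4SP cells (log2 ratio 1.56). *Slc16a3*, the lactate exporter MCT4, had 1012 in lymphomas and 367 in dKO CD4SP cells (log2 ratio 1.46). *Aldoc*, an aldolase gene, showed the largest ratio, at 212 in lymphomas and 16.0 in dKO CD4SP cells (log2 ratio 3.65). *Ldhb*, a lactate dehydrogenase subunit, had 1123 in lymphomas and 431 in dKO CD4SP cells (log2 ratio 1.38), and there the control average of 1876 was above both. Hypoxia targets were mixed, with 2 of 17 past 2-fold higher and 1 lower and a median of 0.22. *Hif1a*, the hypoxia factor gene, was within 2-fold at 4361 in lymphomas and 2932 in dKO CD4SP cells (log2 ratio 0.57). Its target genes *Ndrg1* and *Egln3*, a stress-induced gene and an oxygen sensor, were higher. *Ndrg1* stood at 3155 in lymphomas and 590.4 in dKO CD4SP cells (log2 ratio 2.42). *Egln3* was at 1519 in lymphomas and 514 in dKO CD4SP cells (log2 ratio 1.56). *Vegfa*, the endothelial growth factor, was lower at 6.42 in lymphomas and 93.6 in dKO CD4SP cells (log2 ratio -3.67).

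Other groups of biosynthesis and energy genes varied in their medians, and each had some genes past 2-fold lower. Serine, one-carbon and amino acid uptake genes had 3 of 18 past 2-fold higher and 2 lower, with a median of 0.45. The higher ones included the amino acid carrier gene *Slc38a1*, at 13184 in lymphomas and 5231 in dKO CD4SP cells (log2 ratio 1.33). Its relative *Slc38a2* stood at 4991 in lymphomas and 1947 in dKO CD4SP cells (log2 ratio 1.36). *Mthfd1l*, a mitochondrial folate enzyme gene, had 2514 in lymphomas and 983 in dKO CD4SP cells (log2 ratio 1.35). *Asns*, asparagine synthetase, was lower at 16.6 in lymphomas and 164 in dKO CD4SP cells (log2 ratio -3.23). Of 26 cholesterol and fatty acid synthesis genes 3 were past 2-fold higher and 1 lower, with a median of 0.43. The squalene epoxidase gene *Sqle* averaged 146 in lymphomas and 26.5 in dKO CD4SP cells (log2 ratio 2.42). *Srebf2*, which encodes a factor that controls cholesterol synthesis, stood at 3264 in lymphomas and 1418 in dKO CD4SP cells (log2 ratio 1.20). Oxidative phosphorylation subunits, by contrast, centered on -0.03, with none of 76 past 2-fold higher and 2 lower. *Atp5e*, of ATP synthase, stood at 999 in lymphomas and 2685 in dKO CD4SP cells (log2 ratio -1.43). *Cox7c*, of complex IV, had 168 in lymphomas and 418 in dKO CD4SP cells (log2 ratio -1.31). Ribosomal protein genes centered on -0.06, with 6 of 81 past 2-fold higher and 6 lower. *Rps16* had the highest ratio, with 8639 in lymphomas and 540.2 in dKO CD4SP cells (log2 ratio 4.00). *Rps7* was among the lower ones, with 949 in lymphomas and 4634 in dKO CD4SP cells (log2 ratio -2.29). Ribosomal protein genes share reads with many near-identical pseudogenes, and these values are uncertain, as are the log2 ratios of *Rpl5* (1.71), *Rps6* (1.30), *Rpl27* (1.14) and *Rps21* (-1.15).

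**Figure D2:**
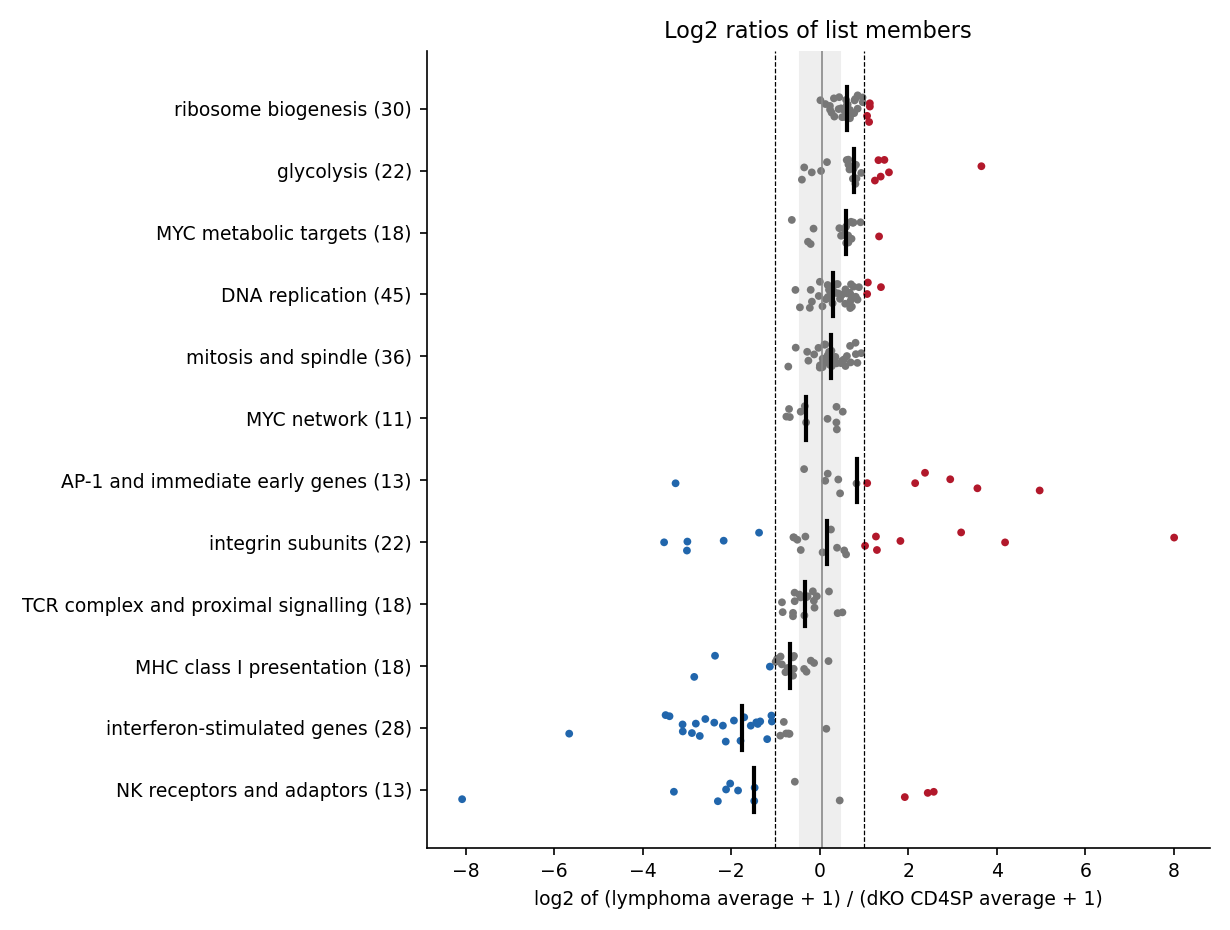
Log2 ratio of lymphoma to dKO CD4SP averages (horizontal axis, 1 added to each) for the kept members of 12 gene lists, with the number of members in parentheses; points past 2-fold are red where higher and blue where lower, black bars are medians, the gray band holds the quartiles of all kept genes and dashed lines mark 2-fold. The interferon-stimulated genes center on -1.75 and the ribosome biogenesis genes on 0.62.

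Genes of DNA replication and mitosis leaned to higher values by small amounts, where 53.3% of all genes had a log2 ratio above 0. Of 45 DNA replication genes 3 were past 2-fold higher and none lower, with a median of 0.29 and 39 above 0, and of 36 mitosis and spindle genes none was past 2-fold in either direction, with a median of 0.24 and 30 above 0. *Prim2*, the primase subunit gene, had 1140.4 in lymphomas and 436 in dKO CD4SP cells (log2 ratio 1.38). *Chaf1b*, a histone chaperone, averaged 747 in lymphomas and 351 in dKO CD4SP cells (log2 ratio 1.09). *Orc1*, of the origin recognition complex, stood at 149 in lymphomas and 70.2 in dKO CD4SP cells (log2 ratio 1.07). G1 cyclin, CDK, E2F and RB genes centered on -0.01, with *Cdk6* alone of 22 past 2-fold, at 525 in lymphomas and 252 in dKO CD4SP cells (log2 ratio 1.06). DNA damage genes had a median of 0.31, with 3 of 23 past 2-fold higher and none lower. *Fanci*, a crosslink repair gene, stood at 353 in lymphomas and 155 in dKO CD4SP cells (log2 ratio 1.18). The end-joining gene *Xrcc5*, which encodes KU80, had 992 in lymphomas and 478 in dKO CD4SP cells (log2 ratio 1.05). Among 16 genes of DNA methylation, TET and Polycomb enzymes only *Dnmt3b*, a de novo DNA methyltransferase, was past 2-fold, at 339 in lymphomas and 74.0 in dKO CD4SP cells (log2 ratio 2.18). The dKO CD4SP value was the lowest of the 5 groups, with 181 in the libraries labelled *Id3*-/-, 104 in TFH cells and 207 in control CD4SP cells.

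The clearest group on the lower side was that of interferon-stimulated genes, which cells switch on in response to interferons and which restrict viruses. All 28 listed genes passed the filter, 22 of them were past 2-fold lower in lymphomas where 13.3% of all genes were, and none was past 2-fold higher. Their median log2 ratio was -1.75. *Ifit1*, which binds viral RNA caps, lies on chromosome 19 from 34640871 to 34650009 and averaged 95.8 in lymphomas and 1081 in dKO CD4SP cells (log2 ratio -3.48), with 1233 in the libraries labelled *Id3*-/-, 585 in TFH cells and 1491 in control CD4SP cells. The lymphoma average was the lowest of the 5. *Isg15*, a ubiquitin-like modifier on chromosome 4 from 156199424 to 156200818, averaged 139.8 in lymphomas and 1202 in dKO CD4SP cells (log2 ratio -3.09), with 763 in the libraries labelled *Id3*-/-, 681 in TFH cells and 1045 in control CD4SP cells. *Rsad2*, which encodes the antiviral enzyme viperin, stood at 48.2 in lymphomas and 421 in dKO CD4SP cells (log2 ratio -3.10). *Ifit3*, a partner of *Ifit1*, had 53.9 in lymphomas and 406 in dKO CD4SP cells (log2 ratio -2.89). *Oas1a*, a sensor of double-stranded RNA that may share reads with its close copies, had 96.6 in lymphomas and 1025 in dKO CD4SP cells (log2 ratio -3.39). *Ifi44* had the lowest ratio of the list, -5.66, with 4.88 in lymphomas and 297 in dKO CD4SP cells. Transcription factors that carry the signal were lower too. *Irf9* was at 570.0 in lymphomas and 1975 in dKO CD4SP cells (log2 ratio -1.79). *Irf7* averaged 527 in lymphomas and 2022 in dKO CD4SP cells (log2 ratio -1.94). Only *Irf1* was above 0, at 2527 in lymphomas and 2278 in dKO CD4SP cells (log2 ratio 0.15). In dKO CD4SP cells *Ifit1*, *Isg15* and *Irf7* lay within 2-fold of control CD4SP cells, which had 2345 of *Irf7*.

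The promoters of some of these genes hold the sequence element that interferon-activated factors are known to bind, and a few are printed for that reason. RefSeq promoters of build GRCm38.p6, from 250 bases before to 50 after the start site, were searched on both strands for the core of the interferon-stimulated response element, which is GAAA followed after any 2 bases by a second GAAA. The table held promoters of 21 of the 28 genes. The letters were found in 13 of these 21 (61.9%), while 1079 of 27025 genes (3.99%) and none of 24 ribosome biogenesis genes held them. Since interferon-stimulated genes are known for this element, that share says nothing about the difference between the groups. A link between the letters and the lower averages was not tested. A match is a description of letters and not a measured site. Windows of the promoters follow, 5′ to 3′ on the strand of the gene, with the match in capitals, in the reverse orientation, with TTTC in place of GAAA, for *Ifit1*, *Rsad2* and *Gbp2* and as searched for *Isg15* and *Igtp*.
Ifit1, chr19:34640774-34640843, + strand: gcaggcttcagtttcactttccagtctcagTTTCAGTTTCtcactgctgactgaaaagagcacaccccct
Isg15, chr4:156200845-156200914, - strand: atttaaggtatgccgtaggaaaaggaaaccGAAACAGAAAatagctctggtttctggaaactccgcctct
Rsad2, chr12:26456533-26456602, - strand: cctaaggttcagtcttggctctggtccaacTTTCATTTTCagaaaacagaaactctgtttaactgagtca
Gbp2, chr3:142620574-142620643, + strand: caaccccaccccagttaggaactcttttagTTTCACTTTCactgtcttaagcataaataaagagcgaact
Igtp, chr11:58199492-58199555, + strand: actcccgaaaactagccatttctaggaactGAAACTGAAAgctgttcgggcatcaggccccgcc

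The matches lie close before the start sites, with the first base 85 bases before it in *Ifit1*, 66 in *Isg15*, 120 in *Rsad2*, 59 in *Gbp2* and 34 in *Igtp*. *Gbp2* and *Igtp* encode interferon-induced GTPases that act on vacuoles of microbes. *Gbp2* averaged 383 in lymphomas and 817 in dKO CD4SP cells (log2 ratio -1.09). *Igtp* averaged 593 in lymphomas and 1937 in dKO CD4SP cells (log2 ratio -1.71). In *Ifit1* and *Isg15* further matches stand within the same windows. The E box CACGTG, the letters that MYC and its partner MAX bind, occurred in 5 of 24 ribosome biogenesis promoters (20.8%), in none of the 21 of interferon-stimulated genes and in 2187 of 27025 (8.09%) in all. A link between these letters and the ratios was not tested.

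MHC class I genes, which display peptides on the cell surface and are also raised by interferon, were lower to a smaller degree. None of 18 was past 2-fold higher and 3 were lower, with a median of -0.66, and 17 had ratios below 0. *B2m*, the light chain of class I molecules, averaged 18858 in lymphomas and 37633 in dKO CD4SP cells. *Nlrc5*, the activator of class I transcription, stood at 541 in lymphomas and 1182 in dKO CD4SP cells (log2 ratio -1.13). The lowest ratios were those of nonclassical class I genes. *H2-Q7* averaged 873 in lymphomas and 6239.9 in dKO CD4SP cells (log2 ratio -2.84). *H2-Q6* averaged 287 in lymphomas and 1484 in dKO CD4SP cells (log2 ratio -2.37). Since class I genes are near-identical copies, reads may be split among them. The TCR complex and its proximal signaling genes, in contrast, had none of 18 past 2-fold, with a median of -0.33.

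Surface molecules that hold or move T cells gave some of the largest ratios. Of 22 kept integrin genes 7 were past 2-fold higher and 5 lower. *Itgb4*, the β4 chain that epithelial cells use to bind laminin, lies on chromosome 11 from 115974709 to 116008412 and averaged 3320.3 in lymphomas and 11.9 in dKO CD4SP cells (log2 ratio 8.01). All other groups were low, with 26.0 in the libraries labelled *Id3*-/-, 27.9 in TFH cells and 38.2 in control CD4SP cells. *Itga4*, the α4 chain by which lymphocytes enter tissues, averaged 11340.0 in lymphomas and 621 in dKO CD4SP cells (log2 ratio 4.19), and here TFH cells at 6200.1 and control CD4SP cells at 2224 were above the dKO CD4SP value. *Itga2*, a collagen-binding chain, stood at 110.2 in lymphomas and 11.1 in dKO CD4SP cells (log2 ratio 3.20). *Itgae*, the CD103 chain that binds E-cadherin, had 604 in lymphomas and 170.0 in dKO CD4SP cells (log2 ratio 1.82). *Itga7*, a laminin-binding chain, was at 494 in lymphomas and 204 in dKO CD4SP cells (log2 ratio 1.27). *Itgb8*, which activates TGFβ, averaged 5.27 in lymphomas and 70.8 in dKO CD4SP cells (log2 ratio -3.52). Thymic egress and homing genes had 5 of 12 past 2-fold higher and none lower. *Cd69*, which retains cells by removing the egress receptor S1PR1, stood at 3015 in lymphomas and 797 in dKO CD4SP cells (log2 ratio 1.92). *Plxnd1*, a plexin of thymocyte migration, had 1526 in lymphomas and 504 in dKO CD4SP cells (log2 ratio 1.59). Of the 6 tumors 4 were taken from lymph node, and the tissue cannot be told apart from the tumor in these genes. Among 16 chemokine receptor genes 4 were past 2-fold higher and 1 lower. *Ccr2*, a receptor of inflamed tissue, had 1036 in lymphomas and 408 in dKO CD4SP cells (log2 ratio 1.34). *Cxcr3*, of type 1 effector cells, was at 199 in lymphomas and 83.5 in dKO CD4SP cells (log2 ratio 1.24). *Epcam*, an epithelial adhesion gene that is listed as a thymic epithelial marker, averaged 3797 in lymphomas and 593 in dKO CD4SP cells (log2 ratio 2.68). The keratin gene *Krt8*, of the same list, stood at 2.16 in lymphomas and 4.40 in dKO CD4SP cells.

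Coreceptor genes differed in unequal degree. *Cd8a*, on chromosome 6 from 71373427 to 71379173, averaged 1388 in lymphomas and 19.2 in dKO CD4SP cells (log2 ratio 6.11). *Cd8b1*, the β chain, stood at 461 in lymphomas and 212 in dKO CD4SP cells (log2 ratio 1.11). The sort labels name CD8+ cells in 2 of 6 lymphomas and CD8- cells in all dKO CD4SP libraries. *Cd4* had 4110.2 in lymphomas and 6565 in dKO CD4SP cells. *Zbtb7b*, the factor ThPOK that commits cells to the CD4 lineage, was lower at 1258 in lymphomas and 3100.0 in dKO CD4SP cells (log2 ratio -1.30). *Runx3*, its counterpart in CD8 cells, was higher at 399 in lymphomas and 118 in dKO CD4SP cells (log2 ratio 1.74). In this list of 15 kept genes 7 were past 2-fold higher and 2 lower. Some immature markers were among the higher ones, with *Cd24a*, a surface antigen of thymocytes, at 421 in lymphomas and 77.3 in dKO CD4SP cells (log2 ratio 2.43). *Dntt*, the enzyme that adds bases at TCR joints, had 482 in lymphomas and 219.8 in dKO CD4SP cells (log2 ratio 1.13). *Arpp21*, a gene of double-positive thymocytes, was at 673 in lymphomas and 252 in dKO CD4SP cells (log2 ratio 1.41). *Rag1*, a subunit of the recombinase, went the other way, at 0.423 in lymphomas and 13.4 in dKO CD4SP cells. Its log2 ratio of -3.34 was the lowest of the list.

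Several receptors of growth signals and costimulation stood apart. *Il7r*, the IL-7 receptor chain that sustains naive T cells, lies on chromosome 15 from 9505788 to 9530176 and averaged 3392 in lymphomas and 311 in dKO CD4SP cells (log2 ratio 3.44), with 4070.2 in the libraries labelled *Id3*-/-, 1538 in TFH cells and 3997 in control CD4SP cells. Only the dKO CD4SP average was low among the 5. The allele that drives Cre in the dKO CD4SP mice sits in this gene, and its part was not tested. *Il1r1*, an IL-1 receptor, was higher at 124 in lymphomas and 10.0 in dKO CD4SP cells (log2 ratio 3.50). *Il18rap*, an IL-18 receptor chain, was also higher, at 95.3 in lymphomas and 24.8 in dKO CD4SP cells (log2 ratio 1.90). *Il2ra*, the IL-2 receptor α chain CD25, was lower at 67.5 in lymphomas and 316 in dKO CD4SP cells (log2 ratio -2.21). *Il15ra*, which presents IL-15 to neighboring cells, was lower at 10.4 in lymphomas and 54.7 in dKO CD4SP cells (log2 ratio -2.29). Of 23 cytokine receptor genes 3 were past 2-fold higher and 2 lower. Costimulatory and checkpoint receptors had 3 of 14 higher and 2 lower. *Ctla4*, an inhibitory receptor, was higher at 756 in lymphomas and 208 in dKO CD4SP cells (log2 ratio 1.85). *Lag3*, which restrains T cells by binding MHC class II, was higher at 912 in lymphomas and 207 in dKO CD4SP cells (log2 ratio 2.13). *Cd226*, an activating receptor, was higher at 441 in lymphomas and 35.2 in dKO CD4SP cells (log2 ratio 3.61). *Tnfrsf9*, which encodes the TNF receptor family member 4-1BB, was lower at 1033 in lymphomas and 2477 in dKO CD4SP cells (log2 ratio -1.26). *Tnfrsf4*, which encodes OX40, had 186 in lymphomas and 426 in dKO CD4SP cells (log2 ratio -1.19). Cytokine genes had 3 of 16 higher and 4 lower, and the lower ones included *Ltb*, lymphotoxin β, at 1067 in lymphomas and 2508 in dKO CD4SP cells (log2 ratio -1.23). *Csf1*, a macrophage growth factor, averaged 487 in lymphomas and 988 in dKO CD4SP cells (log2 ratio -1.02).

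**Figure D3:**
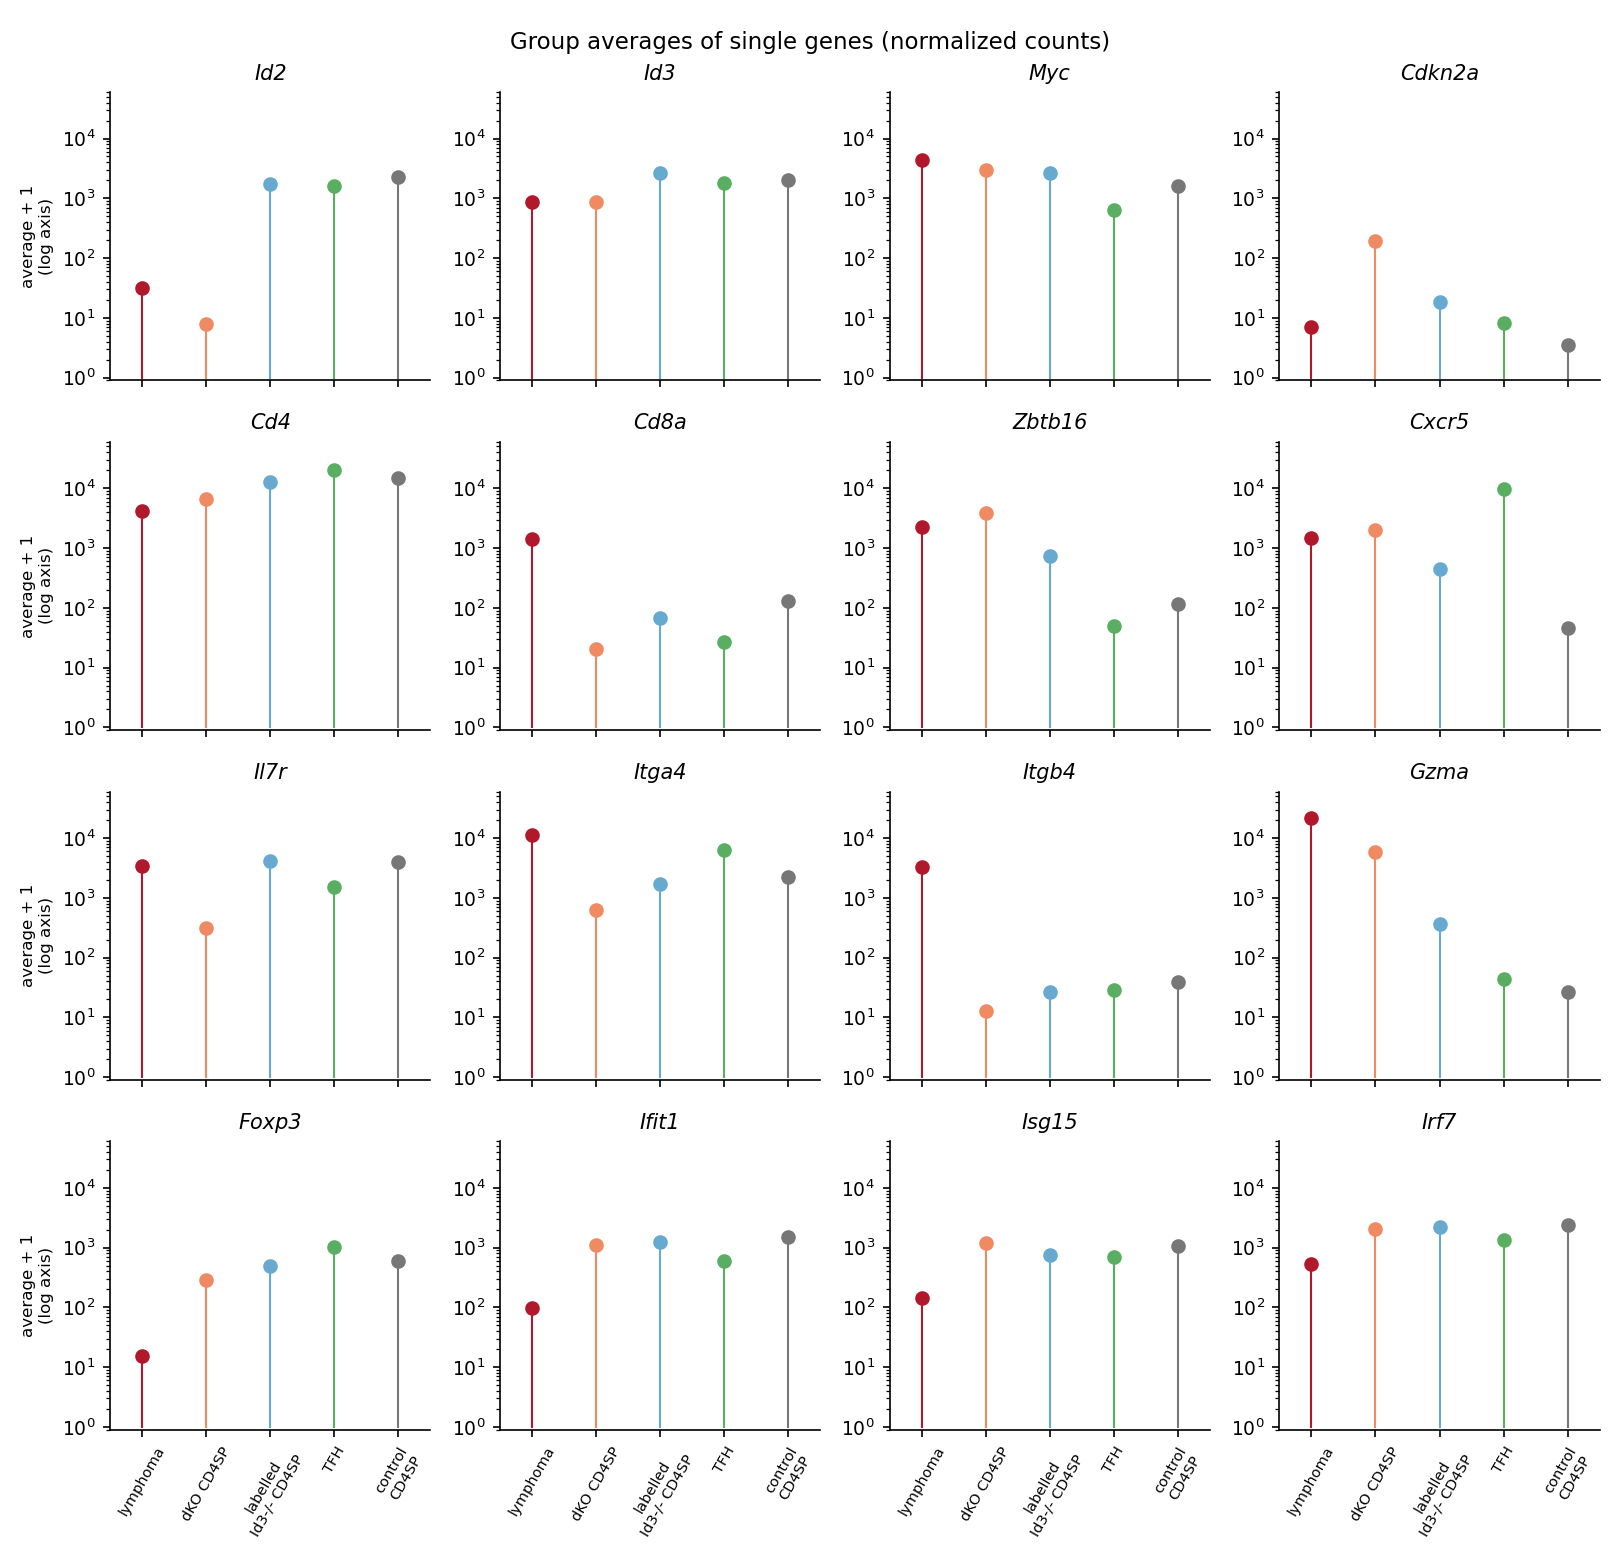
Average of normalized counts plus 1 (vertical log axis) of 16 genes in lymphomas, dKO CD4SP cells, libraries labelled *Id3*-/-, TFH cells and control CD4SP cells, from left to right; each point is 1 group average and has no error bar because values per library were not used. *Cdkn2a* is high in dKO CD4SP cells alone at 192, *Itgb4* in lymphomas alone at 3320.3, and *Ifit1* is lowest in lymphomas at 95.8.

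Genes of the TFH program mostly lay within 2-fold between the groups. Of 19 kept TFH genes only *Prdm1*, the repressor BLIMP1 that opposes TFH fate, was past 2-fold, at 67.6 in lymphomas and 32.1 in dKO CD4SP cells (log2 ratio 1.05), and their median log2 ratio was 0.04, which turned to -0.08 after scaling to equal sums. *Cxcr5*, the receptor for B cell follicles, averaged 1492 in lymphomas and 2006 in dKO CD4SP cells, beside 44.6 in control CD4SP cells. *Pdcd1*, which encodes the inhibitory receptor PD-1, had 2881 in lymphomas and 5668 in dKO CD4SP cells, beside 448 in control CD4SP cells. *Zbtb16*, which encodes the innate T cell factor PLZF, had 2211 in lymphomas and 3912 in dKO CD4SP cells, beside 116 in control CD4SP cells. *Myb*, a proto-oncogene of T cell precursors, stood at 6336 in lymphomas and 6351 in dKO CD4SP cells, beside 694 in control CD4SP cells. These 4 genes were named after their values were seen. Among 16 innate T cell genes 3 were past 2-fold higher and 2 lower. *Sox13*, a factor of γδ T cells, was at 1616 in lymphomas and 778 in dKO CD4SP cells (log2 ratio 1.05). *Eomes*, a factor of effector and NK cells, stood at 37.0 in lymphomas and 138 in dKO CD4SP cells (log2 ratio -1.87). Granzyme A, *Gzma*, a protease of cytotoxic granules, averaged 21911 in lymphomas and 5809 in dKO CD4SP cells (log2 ratio 1.92), against 365 in the libraries labelled *Id3*-/-, 42.9 in TFH cells and 25.2 in control CD4SP cells, so that the lymphomas were the highest of the 5 groups. *Serpinb9*, an inhibitor that guards cells from granzyme B, was lower at 83.9 in lymphomas and 282 in dKO CD4SP cells (log2 ratio -1.74).

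NK receptor genes were mostly lower. Of 24 listed genes 13 passed the filter, 8 of them past 2-fold lower and 3 higher, with a median of -1.48 that became -0.56 with no filter. The Ly49 receptor gene *Klra9* averaged 1.27 in lymphomas and 613 in dKO CD4SP cells (log2 ratio -8.08). *Klra3* had 100.1 in lymphomas and 281 in dKO CD4SP cells (log2 ratio -1.48). *Klra1* was at 791 in lymphomas and 2194 in dKO CD4SP cells (log2 ratio -1.47). Ly49 genes are close copies in 1 cluster and may share reads. *Klrb1a*, a C-type lectin receptor, had 58.3 in lymphomas and 240.1 in dKO CD4SP cells (log2 ratio -2.02). *Fcer1g*, a signaling adaptor of Fc receptors, averaged 53.7 in lymphomas and 269 in dKO CD4SP cells (log2 ratio -2.30). On the higher side *Klrd1*, which encodes CD94, had 167 in lymphomas and 29.9 in dKO CD4SP cells (log2 ratio 2.44). *Fcgr3*, a low-affinity Fc receptor that macrophages and NK cells carry, stood at 80.9 in lymphomas and 20.6 in dKO CD4SP cells (log2 ratio 1.92). TCRγ constant genes, which γδ T cells use, were lower as well. *Tcrg-C1* stood at 57.5 in lymphomas and 519 in dKO CD4SP cells (log2 ratio -3.15). *Tcrg-C4* had 67.5 in lymphomas and 1717 in dKO CD4SP cells (log2 ratio -4.65), whereas *Tcrg-C2* was within 2-fold. Regulatory T cell genes had 4 of 14 past 2-fold higher and 4 lower. The defining factor *Foxp3*, on chromosome X from 7573644 to 7595245, averaged 14.6 in lymphomas and 280.5 in dKO CD4SP cells (log2 ratio -4.17), with 481 in the libraries labelled *Id3*-/-, 1016 in TFH cells and 591 in control CD4SP cells. *Lrrc32*, which anchors TGFβ on these cells, had 54.1 in lymphomas and 459.6 in dKO CD4SP cells (log2 ratio -3.06). *Gpr83*, a receptor gene of regulatory T cells, was higher at 215 in lymphomas and 53.8 in dKO CD4SP cells (log2 ratio 1.98). *Entpd1*, which encodes the ectoenzyme CD39, was higher at 178 in lymphomas and 64.2 in dKO CD4SP cells (log2 ratio 1.45).

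Signaling genes of the WNT, TGFβ and BMP, and NOTCH lists were called in both directions. The background over all genes was 11.2% higher and 13.3% lower, and the shares of these lists were larger each way. Their median log2 ratios were -0.08, 0.06 and 0.44. Of 23 WNT pathway genes 3 were past 2-fold higher and 7 lower. The ligand gene *Wnt10a* was lower at 1963 in lymphomas and 5351 in dKO CD4SP cells (log2 ratio -1.45). *Wnt6*, another ligand gene, was lower at 203 in lymphomas and 981 in dKO CD4SP cells (log2 ratio -2.26). Both averages were far above control CD4SP cells, which had 32.4 of *Wnt10a* and 1.74 of *Wnt6*. The receptor gene *Fzd6* was lower at 20.6 in lymphomas and 199.6 in dKO CD4SP cells (log2 ratio -3.21). *Fzd10*, a related receptor gene, was lower at 0.518 in lymphomas and 105 in dKO CD4SP cells (log2 ratio -6.12). *Rnf43* and *Axin2* encode feedback inhibitors that WNT signals induce. *Rnf43* was higher at 291 in lymphomas and 35.1 in dKO CD4SP cells (log2 ratio 3.01). *Axin2* was higher at 526 in lymphomas and 238 in dKO CD4SP cells (log2 ratio 1.14). TGFβ and BMP genes had 5 of 22 higher and 5 lower. *Eng*, the coreceptor endoglin, averaged 1105 in lymphomas and 37.5 in dKO CD4SP cells (log2 ratio 4.85). *Tgfb3*, a ligand, was at 219.6 in lymphomas and 76.2 in dKO CD4SP cells (log2 ratio 1.51). *Acvrl1*, a receptor kinase, averaged 60.3 in lymphomas and 25.5 in dKO CD4SP cells (log2 ratio 1.21). *Smad1*, a BMP effector, had 37.7 in lymphomas and 241 in dKO CD4SP cells (log2 ratio -2.64). *Ski*, a repressor of SMAD targets, stood at 1484 in lymphomas and 3989 in dKO CD4SP cells (log2 ratio -1.43). The inhibitor *Smad7* stood at 77.3 in lymphomas and 184 in dKO CD4SP cells (log2 ratio -1.24). NOTCH genes had 4 of 17 higher and 3 lower, with the ligand *Jag2* at 921 in lymphomas and 232 in dKO CD4SP cells (log2 ratio 1.98). The receptor *Notch3* had 56.6 in lymphomas and 27.2 in dKO CD4SP cells (log2 ratio 1.03). *Rbpj*, the DNA-binding partner of NOTCH, stood at 1462 in lymphomas and 728 in dKO CD4SP cells (log2 ratio 1.01). *Lfng*, a glycosyltransferase that modifies NOTCH, was at 819 in lymphomas and 1687 in dKO CD4SP cells (log2 ratio -1.04).

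In the PI3K and AKT list none of 19 was past 2-fold higher and 2 were lower. *Pik3cb*, which encodes the catalytic subunit p110β, averaged 5.56 in lymphomas and 162 in dKO CD4SP cells (log2 ratio -4.64). *Pik3cb* stood at 109.7 in control CD4SP cells, so that only the lymphoma average was low. The mTORC1 list had 1 of 19 past 2-fold, the ribosomal S6 kinase gene *Rps6ka2*, at 827 in lymphomas and 2336 in dKO CD4SP cells (log2 ratio -1.50). *Foxo1* and *Foxo3*, forkhead factors of T cell quiescence that AKT keeps inactive, were within 2-fold. *Foxo1* averaged 913 in lymphomas and 843 in dKO CD4SP cells (log2 ratio 0.11), beside 4103 in control CD4SP cells. *Foxo3* averaged 803 in lymphomas and 605 in dKO CD4SP cells (log2 ratio 0.41), beside 1247 in control CD4SP cells. Quiescence factors had 1 of 18 past 2-fold, *Tsc22d3*, which encodes the glucocorticoid-induced protein GILZ, at 257 in lymphomas and 103 in dKO CD4SP cells (log2 ratio 1.31), far below the control value of 2437. Exchange factors and GAPs of RAS and RAP1 had 3 of 20 past 2-fold higher and none lower, with *Rapgef4*, a RAP1 exchange factor gene, at 127 in lymphomas and 15.7 in dKO CD4SP cells (log2 ratio 2.94). *Rasgrp4*, a RAS exchange factor gene, averaged 123 in lymphomas and 54.2 in dKO CD4SP cells (log2 ratio 1.16). *Rasal1*, a GAP gene of RAS, stood at 434 in lymphomas and 211 in dKO CD4SP cells (log2 ratio 1.03).

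Early response genes gave a split picture. Among 13 AP-1 and immediate early genes 6 were past 2-fold higher and 1 lower, with a median of 0.83. *Fos*, which encodes an AP-1 subunit, averaged 1554 in lymphomas and 200.3 in dKO CD4SP cells (log2 ratio 2.95). *Fosb*, which encodes another subunit, had 159.6 in lymphomas and 29.9 in dKO CD4SP cells (log2 ratio 2.38). *Atf3*, a stress-induced factor, was at 128 in lymphomas and 3.12 in dKO CD4SP cells (log2 ratio 4.97). *Ier3*, a gene of the stress response, had 186 in lymphomas and 14.8 in dKO CD4SP cells (log2 ratio 3.56). The small MAF factor *Maff* averaged 250.2 in lymphomas and 55.3 in dKO CD4SP cells (log2 ratio 2.16). *Jun*, which encodes a dimer partner of FOS proteins, went the other way, at 44.8 in lymphomas and 437 in dKO CD4SP cells (log2 ratio -3.26). TFH cells had the highest *Fos*, at 7306, and *Jun*, at 4101. TCR-induced and feedback genes had 3 of 26 higher and 3 lower. *Dusp5*, a phosphatase that turns off ERK, was higher at 2093 in lymphomas and 775 in dKO CD4SP cells (log2 ratio 1.43). *Spry4*, an inhibitor of the RAS pathway, was higher at 138 in lymphomas and 54.1 in dKO CD4SP cells (log2 ratio 1.33). *Cish*, an inhibitor of cytokine signals, stood at 107 in lymphomas and 409 in dKO CD4SP cells (log2 ratio -1.93). *Socs1*, another such inhibitor, had 621 in lymphomas and 1263 in dKO CD4SP cells (log2 ratio -1.02). In the NF-kB list *Tnfaip3*, which encodes the inhibitor A20, was higher at 4194 in lymphomas and 713 in dKO CD4SP cells (log2 ratio 2.55). *Bcl3*, an atypical inhibitor, was lower at 79.7 in lymphomas and 282 in dKO CD4SP cells (log2 ratio -1.81). No other gene of the 21 was past 2-fold. BCL2 family genes had 1 of 14 higher and 2 lower. The proapoptotic *Bmf* was higher at 623 in lymphomas and 279.7 in dKO CD4SP cells (log2 ratio 1.15). The prosurvival *Bcl2l2* was lower at 53.6 in lymphomas and 161 in dKO CD4SP cells (log2 ratio -1.57). Of 20 transcription factor genes of T-ALL and lineage choice 2 were higher and 1 lower, and *Mef2c*, a factor of early thymic progenitors, averaged 1181 in lymphomas and 110.5 in dKO CD4SP cells (log2 ratio 3.41).

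Among genes with a larger average of 100 or more, leaving out predicted genes, gene segments, *Xist* and Y-linked genes, the 12 highest ratios came mostly from genes that T cells are not known for. On the higher side *Tex19.2*, a germ cell gene, averaged 693 in lymphomas and 0.857 in dKO CD4SP cells (log2 ratio 8.55). *Epha3*, an ephrin receptor, was at 442 in lymphomas and 1.93 in dKO CD4SP cells (log2 ratio 7.24). *Rab25*, a GTPase of epithelial recycling, averaged 533 in lymphomas and 3.85 in dKO CD4SP cells (log2 ratio 6.78). *Myh3*, the embryonic skeletal myosin heavy chain, stood at 564 in lymphomas and 4.31 in dKO CD4SP cells (log2 ratio 6.73). *Nxf3*, a member of the RNA export factor family, had 292 in lymphomas and 1.70 in dKO CD4SP cells (log2 ratio 6.76). *Cyp2c23*, a cytochrome P450, had 688 in lymphomas and 6.82 in dKO CD4SP cells (log2 ratio 6.46). *Tmem40*, a membrane protein gene, had 685 in lymphomas and 7.95 in dKO CD4SP cells (log2 ratio 6.26). The noncoding *Platr14* was at 219.8 in lymphomas and 0.494 in dKO CD4SP cells (log2 ratio 7.21). *Syt16*, a synaptotagmin family member, had 149 in lymphomas and was listed at 0 in dKO CD4SP cells. Besides *Itgb4*, the other 2 of these 12 ratios belonged to myeloid genes. *S100a9*, of granulocytes, averaged 230.0 in lymphomas and 0.289 in dKO CD4SP cells (log2 ratio 7.49). *Chil3*, of macrophages and granulocytes, averaged 177 in lymphomas and 1.14 in dKO CD4SP cells (log2 ratio 6.38). The granulocyte markers given above were higher along with them. An average of 6 tumors cannot show in how many of them such a gene was on.

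On the lower side *Penk*, which encodes the opioid precursor proenkephalin, averaged 6.82 in lymphomas and 488 in dKO CD4SP cells (log2 ratio -5.96). *Cthrc1*, a secreted collagen repeat protein, had 5.37 in lymphomas and 347 in dKO CD4SP cells (log2 ratio -5.77), and as control CD4SP cells held 0.724 the dKO CD4SP cells stood alone. *Abca1*, a cholesterol exporter, was at 18.4 in lymphomas and 572 in dKO CD4SP cells (log2 ratio -4.89). *Castor2*, a homolog of the arginine sensor of mTORC1, averaged 6.73 in lymphomas and 239 in dKO CD4SP cells (log2 ratio -4.96). *Bbx*, an HMG-box protein gene, stood at 9.12 in lymphomas and 297 in dKO CD4SP cells (log2 ratio -4.88). In these 3 the control averages of 669.7, 503 and 785 lay above the dKO CD4SP values. The lymphoma averages were the lowest of the 5 groups, with TFH cells at 114 of *Abca1*, 376 of *Castor2* and 901 of *Bbx*. *Cntln*, a centrosomal protein gene, had 2.14 in lymphomas and 112 in dKO CD4SP cells (log2 ratio -5.16). *Shtn1*, of axon growth, had 2.01 in lymphomas and 106 in dKO CD4SP cells (log2 ratio -5.15). *Hist1h2ap*, a histone H2A gene, averaged 12.0 in lymphomas and 889 in dKO CD4SP cells (log2 ratio -6.10). *Xlr3b*, an X-linked gene, averaged 2.56 in lymphomas and 227 in dKO CD4SP cells (log2 ratio -6.00). Both belong to families of near-identical copies, and their values are uncertain.

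TCR gene usage was narrower in the lymphoma average. The share of a V gene was taken as a percentage of all V gene averages at its locus. The effective number of genes was computed from these shares as the exponential of their Shannon index. The 21 *Trbv* genes came to an effective number of 3.38 in lymphomas and 10.1 in dKO CD4SP cells, beside 15.5 in control CD4SP cells. For the 98 *Trav* genes it was 8.46 in lymphomas and 55.2 in dKO CD4SP cells, beside 73.8 in control CD4SP cells. *Trbv1* and *Trbv20* held 51.4% and 30.1% of *Trbv* transcripts in lymphomas and 3.58% and 2.03% in dKO CD4SP cells. The genes that led in dKO CD4SP cells were smaller in the tumors, *Trbv13-3* with 11.0% in lymphomas and 25.9% in dKO CD4SP cells and *Trbv13-2* with 5.59% in lymphomas and 25.5% in dKO CD4SP cells. In lymphomas 13 of 21 *Trbv* genes held less than 0.1% each, and in dKO CD4SP cells 2 did. Among *Trav* genes *Trav7-2* led in lymphomas with 30.3%, against 1.40% in dKO CD4SP cells. *Trav9n-3* held 18.9% in lymphomas and 8.77% in dKO CD4SP cells, and its near copy *Trav9d-3* held 18.2% in lymphomas and 7.80% in dKO CD4SP cells. Shares carry no error, and duplicated *Trav* genes can share reads. The number of clones in a tumor was not measured.

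**Figure D4:**
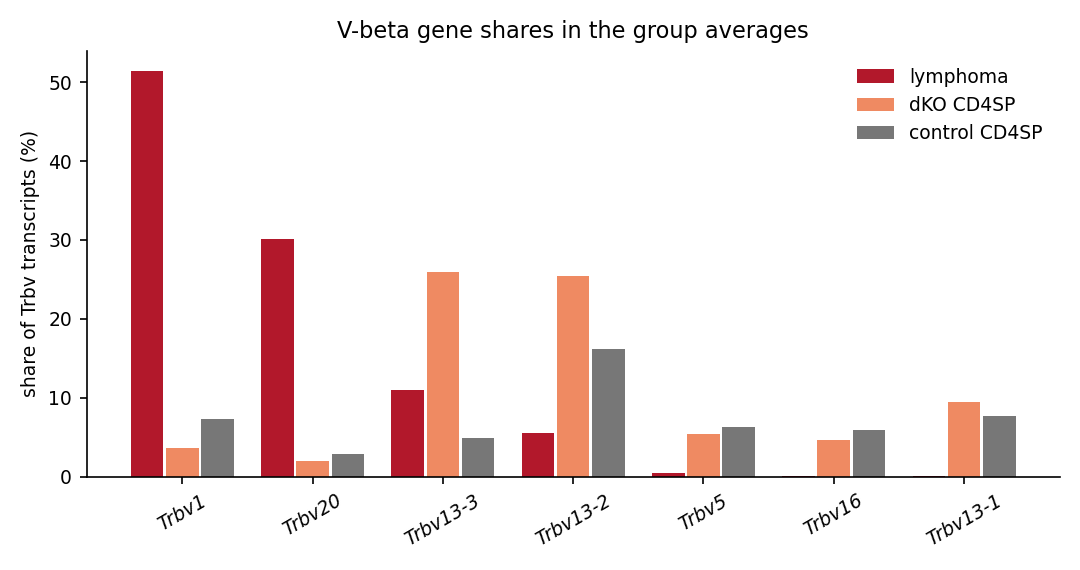
Share of *Trbv* transcripts (percent, vertical axis) of the V genes above 1% in lymphomas or above 4% in dKO CD4SP cells, with lymphomas, dKO CD4SP cells and control CD4SP cells side by side; bars are shares of group averages without error. *Trbv1* reaches 51.4% in lymphomas and *Trbv13-3* 25.9% in dKO CD4SP cells.

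Along the genome, log2 ratios leaned to higher values on some chromosomes. TCR and immunoglobulin gene segments were left out. On chromosome 15, which carries *Myc*, *Il7r* and *Ndrg1*, the median over 530 genes was 0.44, with 76.8% of ratios above 0, where 53.3% of all genes were, and 16.8% past 2-fold higher. Chromosome 11 came next at 0.31 over 1217 genes, with 68.0% above 0, and then chromosome 12 at 0.18. The lowest medians were those of chromosome 14, at -0.15, chromosome 19, at -0.14, and chromosome 13, at -0.12. In windows of 20 Mb along chromosome 15 the 6 medians lay between 0.27 and 0.55, all above the 0.05 of all genes. Set against control CD4SP cells the chromosome 15 median was 0.55 in lymphomas and 0.07 in dKO CD4SP cells, and that of chromosome 11 was 0.27 in lymphomas and 0.004 in dKO CD4SP cells. These 2 comparisons share the control libraries. Gene copy number was not measured.

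**Figure D5:**
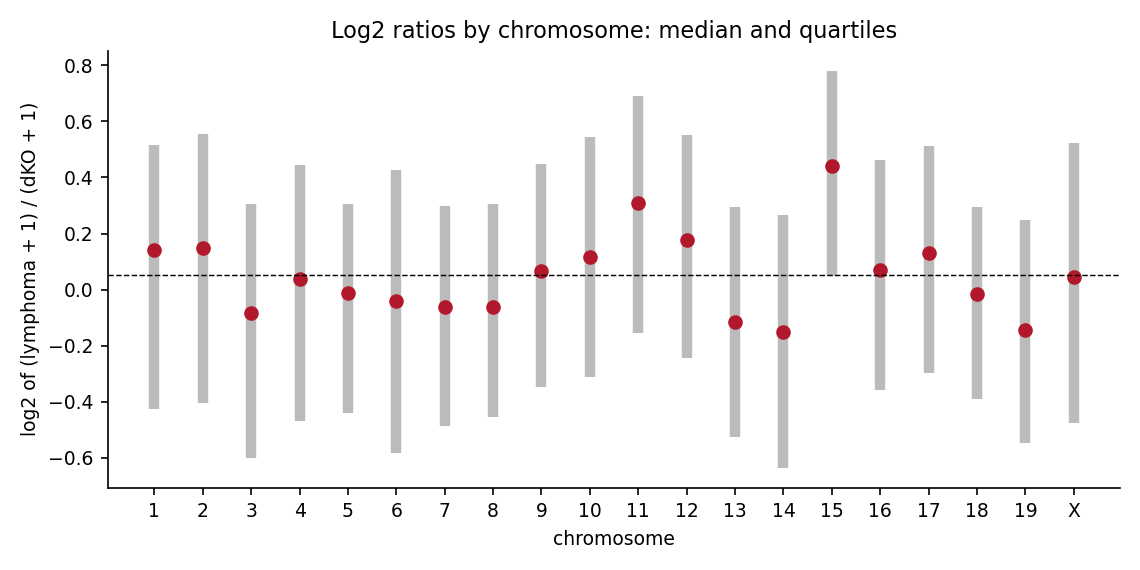
Log2 ratio of lymphoma to dKO CD4SP averages (vertical axis, 1 added to each) by chromosome, with points for medians and gray bars from the lower to the upper quartile; the dashed line is the median of all kept genes, 0.05. Chromosomes 15 and 11 have the highest medians, 0.44 and 0.31.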

How the data were processed

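RNA of sorted mouse cells was measured by strand-specific RNA-seq on HiSeq instruments. The authors aligned reads to mm10 with OSA in Array Studio, estimated gene counts with RSEM and normalized and compared them with DESeq, and describe the removal of genes of abundance below 10 in all samples, although the deposited table still holds genes whose averages are all below 10; tool versions: not given in the sources used here. Deposited signal values are averages of these normalized counts, 1 column for each of 5 groups. No column per library was used, so the depth of a library is unknown, and no standard deviation, test or p-value was computed. The 12 other columns hold the authors' fold changes, p-values and adjusted p-values against control and were not used. 

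From the averages, log2((lymphoma + 1)/(dKO CD4SP + 1)) was computed with Python 3.11.15, numpy 2.4.6 and pandas 2.3.3, and figures were drawn with matplotlib 3.10.9. Genes whose larger average was 10 or more were kept, and 2-fold was the limit for calling a gene higher or lower. Adding 1 understates the difference of low genes. For genes listed at 0 in a group no ratio is printed. Such kept genes, 31 in lymphomas and 23 in dKO CD4SP cells, still entered the counts and the ranking with 1 added. Gene positions came from GENCODE vM21 on GRCm38 (mm10) and promoters from RefSeq on GRCm38.p6. The calculation was checked on simulated averages.

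The members, 44 gene lists and 11 marker lists were chosen with earlier results of these data known. Named were the 12 genes with the highest and the 12 with the lowest ratio among those with a larger average of 100 or more, leaving out predicted genes, gene segments, *Xist* and Y-linked genes. Further named genes were 7 that the study discusses, up to 6 members of each list past 2-fold with a larger average of 50 or more, every member of lists of 9 or fewer, up to 3 genes of each marker list and those next to the filter. List members named at less than 2-fold or beyond these numbers, chromosomal neighbors, TCRγ, immunoglobulin and sex-linked genes were named after their values were seen. Alternatives were another added value, scaling, filter, fold limit and index of diversity, and the omission of sex chromosomes or gene segments. Count models could not be used on averages. Some list members are not reported here.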

Additional observations from a re-analysis of the deposited data

How the results depend on the processing

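With a larger average of 50 or more, 1031 genes were past 2-fold higher and 855 lower of 11302, so that 54.7% of calls were higher where 45.7% were at the filter of 10. With no filter 2308 were higher and 7240 lower of 31477, or 24.2% higher. Past 4-fold, 662 were higher and 905 lower. With averages scaled to equal sums, which shifted the median of all genes from 0.05 by -0.12, 1440 were higher and 2154 lower, and centered on the median 1529 and 2033. Adding 0.5 gave 1643 higher and 1957 lower, and adding 10 gave 1260 and 1323. Without chromosomes X and Y 1563 were higher and 1850 lower, and without gene segments 1594 and 1822. Of 264 list medians 263 stayed within 1.5-fold, the exception being the NK receptors at -0.56 with no filter. Medians near 0 changed sign in 11 lists, among them TFH, cytokine, TGFβ and PI3K genes. Of 788 values of 197 named genes, 744 stayed within 1.5-fold. None past 2-fold reversed, but the settings could hardly reverse them. An added value keeps the sign of a ratio, and scaling shifted all ratios by little. The effective number of V genes depended on its definition. By the inverse Simpson index it was 5.54 for *Trav* in lymphomas and 34.4 in dKO CD4SP cells, and 6.51 for *Trbv* in dKO CD4SP cells. With V families summed it was 3.85 for *Trav* in lymphomas and 10.9 in dKO CD4SP cells, and 5.27 for *Trbv* in dKO CD4SP cells. No paired analysis was possible because only group averages were used, and leaving out each replicate was not run for the same reason. How far single tumors set an average is thus unknown.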

Other observations

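A block of 12 predicted genes on chromosomes 2, 9 and 14, chosen after their values were seen, stood high in dKO CD4SP and control CD4SP cells and low in the other 3 groups. They summed to 93.5 normalized counts in lymphomas and 114220 in dKO CD4SP cells, beside 727 in the libraries labelled *Id3*-/-, 205 in TFH cells and 61790 in control CD4SP cells. That sum was 0.0006% of the sum of averages in lymphomas and 0.799% in dKO CD4SP cells, beside 0.459% in control CD4SP cells. *Gm10800*, on chromosome 2 from 98666547 to 98667301, had 50.6 in lymphomas and 78691 in dKO CD4SP cells, beside 42675 in control CD4SP cells. *Gm10718* and *Gm10722* were listed at 0 in lymphomas. These genes are close copies and may share reads.

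*Ighm* averaged 10603 in lymphomas and 7408 in dKO CD4SP cells, beside 1183 in control CD4SP cells, and *Igkc* averaged 1247 in lymphomas and 170.3 in dKO CD4SP cells, beside 9.41 in control CD4SP cells. *Ighg1* averaged 1904 in lymphomas and 2.60 in dKO CD4SP cells, beside 140.0 in TFH cells and 2.87 in control CD4SP cells.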
